A study of Mus musculus with 12 samples.

Results

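Runx1, Runx2 and Runx3 were followed with their partner subunit Cbfb and 4 blood genes known as targets of RUNX1 (Gfi1, Gfi1b, Myb and Spi1). The cells studied were those of the intra-aortic haematopoietic clusters of mouse embryos. These cells bud from the wall of the embryonic aorta and include definitive blood progenitors. The 8 genes were picked by name out of the 24138 genes in each deposited table, and each had a single row. The choice came from knowledge of the pathway, but with earlier results of these data known. Counts of calls among the 8 are therefore descriptions. RNA was sequenced from 12 samples of C57BL/6 embryos, 3 in each of 4 groups: E11.5 cells that had entered S, G2 or M (written S/G2/M), E11.5 cells in G1, E10.5 cells in S/G2/M and E10.5 cells in G1. The ages are days of gestation. All cells came from the aorta-gonad-mesonephros region (AGM) and were sorted as SSEA-1-, CD31+ and CD117+. S/G2/M cells were the mAG+ cells of Fucci Green animals and G1 cells the mKO2+ cells of Fucci Red animals, 2 reporter lines whose fluorescent proteins mark phases of the cell cycle. Phase and reporter line therefore coincided, and their effects on a comparison of phases cannot be told apart. Nothing in the labels tells whether samples of 1 group had separate litters as their source, and the authors' p-values may then rest on technical spread.

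The deposited values were 1 FPKM value (fragments mapped to a gene, scaled for its transcript length and for the size of the library) for each gene and group. No sample has a value of its own. SDs therefore cannot be given, and sequencing depth is unknown. The words rose and fell are kept for genes with a q-value under 0.05 in the authors' deposited table, and other differences are given as values. Each group appears in 3 deposited tables, and its value for the 8 genes differed between them by 0.725% to 5.91% of the mean, with a median of 2.51%. Levels below come from the tables that compare phases, and age comparisons use the values of their own tables. The 2 comparisons of age share no samples, whereas each comparison of phases shares a group with each comparison of age.

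RUNX proteins are transcription factors that bind DNA through the Runt domain, and CBFβ, which does not itself contact DNA, raises their affinity for it. RUNX1 is required in haemogenic endothelium for the change of endothelial cells into blood cells that forms the clusters. RUNX2 is best known as the regulator of bone formation and RUNX3 from T cells and sensory neurons. GFI1 and GFI1B are related zinc-finger repressors that shut down endothelial genes during this change in the mouse. MYB is needed for definitive but not for primitive blood formation, and PU.1, the product of Spi1, is an ETS factor that drives the myeloid and B-cell lineages.

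The promoters of the 3 Runx genes are shown because RUNX proteins are known to act on Runx genes themselves, and because the same stretch of RUNX core letters stands in each. The windows run from 250 bases before to 50 bases after a RefSeq start and are given 5′ to 3′ on the strand of the gene, from RefSeq on GRCm38.p6. Capitals mark the RUNX core, searched as TGTGGT on both strands, so that it reads ACCACA where it lies on the other one. The Runx1 window is that of the upstream start, at chr16:92826025-92826324 on the minus strand. The Runx2 window lies at chr17:44814578-44814877 on the minus strand. The Runx3 window is that of the upstream start, at chr4:135120395-135120694 on the plus strand.
Runx1: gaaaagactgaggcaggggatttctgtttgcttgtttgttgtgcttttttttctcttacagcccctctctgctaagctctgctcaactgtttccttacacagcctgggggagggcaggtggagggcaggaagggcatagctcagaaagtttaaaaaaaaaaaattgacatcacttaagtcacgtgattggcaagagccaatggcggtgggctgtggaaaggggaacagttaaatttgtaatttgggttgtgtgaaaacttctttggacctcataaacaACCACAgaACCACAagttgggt
Runx2: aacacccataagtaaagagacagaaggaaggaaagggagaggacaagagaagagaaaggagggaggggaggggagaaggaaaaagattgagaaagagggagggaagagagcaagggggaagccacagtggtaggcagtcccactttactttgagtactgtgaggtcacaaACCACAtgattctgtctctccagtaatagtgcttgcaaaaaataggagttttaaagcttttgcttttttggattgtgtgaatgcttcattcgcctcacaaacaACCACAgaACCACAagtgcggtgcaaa
Runx3: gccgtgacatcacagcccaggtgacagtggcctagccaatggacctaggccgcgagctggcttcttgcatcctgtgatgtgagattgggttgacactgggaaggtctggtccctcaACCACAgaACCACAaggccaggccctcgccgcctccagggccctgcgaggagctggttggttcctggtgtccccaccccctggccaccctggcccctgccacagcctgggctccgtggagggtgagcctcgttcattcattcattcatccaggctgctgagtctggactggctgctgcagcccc

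All 3 windows held the same run of 18 bases, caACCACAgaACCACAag, with a pair of RUNX cores in tandem. It began 26 bases after the start in Runx1, 21 bases after it in Runx2 and 136 bases before it in Runx3 (offset -136). The run was looked for after the sequences had been seen. Of the 32851 promoter windows in the table, 4 held it, and they belonged to Runx1, Runx2, Runx3 and Gm16225. Gm16225 lies on chromosome 4, as Runx3 does, and whether their windows overlap was not examined. At least 1 RUNX core occurred in 5506 windows (16.8%), at least 2 in 595 (1.81%) and at least 3 in 60 (0.183%). Runx2 had 3 cores and the upstream windows of Runx1 and Runx3 had 2 each. Promoter windows were found for 7 of the 8 genes, all but Spi1, and numbered 10. The other 7 windows, those of Cbfb, Gfi1, Gfi1b, Myb and the downstream starts of Runx1 and Runx3 among them, had no such match, which says only that these letters were not in them. The GFI1 core AAATCA occurred in 1 of the 10 windows, that of Gfi1b, and in 4598 of all windows. The PU.1 core GAGGAA occurred in the windows of Cbfb and of the downstream Runx1 start, and in 28.3% of all windows. The MYB core AACTG occurred in the upstream windows of Runx1 and Gfi1, and in 44.8% of all windows. Each was searched on both strands, and a match is a description of letters and no proof of binding.

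**Figure D1:**
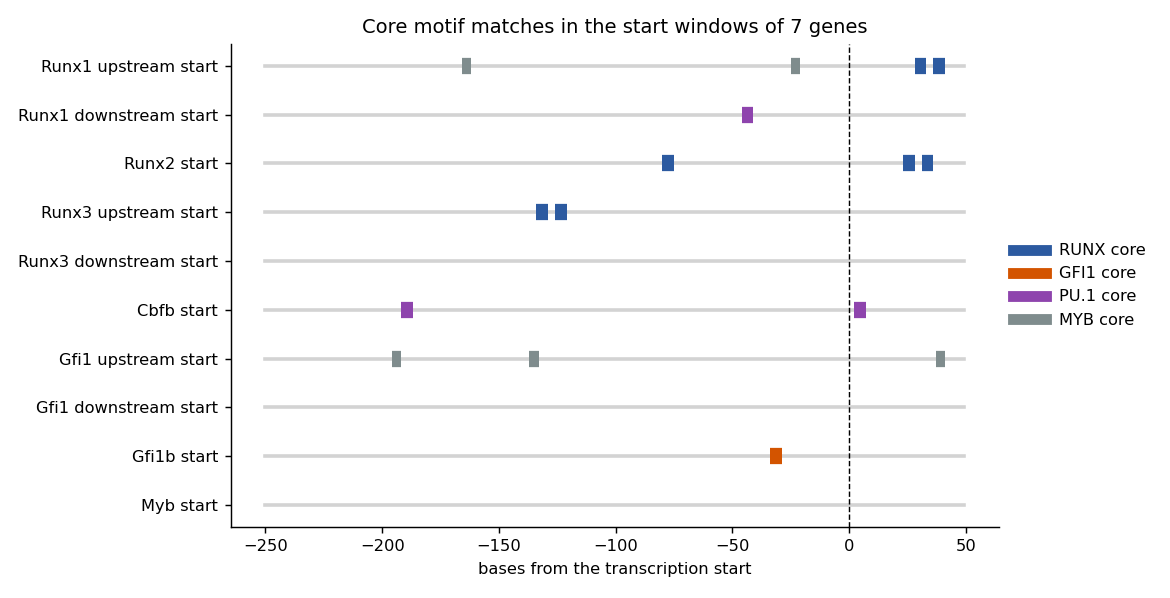
Matches to the RUNX, GFI1, PU.1 and MYB cores in the 10 promoter windows, plotted by distance from the annotated start in bases (x axis), 1 row for each window. RUNX matches appear in 3 windows only, those of Runx2 and of the upstream starts of Runx1 and Runx3.

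The sorted cells carried the transcripts of their sort markers. Pecam1, which encodes CD31, lay between 30.2 and 111 FPKM over the 4 groups in the tables that compare phases, and Kit, which encodes CD117, between 12.7 and 28.9 FPKM. Fut4 and Fut9, whose enzymes can make the SSEA-1 epitope, reached at most 3.98 and 0.248 FPKM. Of 13 G2 and mitosis genes, all had higher values in S/G2/M than in G1 at both ages, and 3 rose at E11.5 and 5 at E10.5 by the q-values of the authors' deposited tables, with median log2 fold changes of 1.12 and 1.13. Between ages, 1 of them rose in G1, and in S/G2/M 1 rose and 1 fell. Of all genes tested, 0.701% were called between phases at E11.5 and 0.655% at E10.5. Between ages the shares were 4.45% in G1 and 4.07% in S/G2/M.

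Of the 3 Runx genes, Runx1 had the highest level in every group. Its FPKM was 39.6 in E11.5 S/G2/M cells, 26.6 in E11.5 G1 cells, 10.3 in E10.5 S/G2/M cells and 9.85 in E10.5 G1 cells. Both E11.5 groups were above both E10.5 groups, and the 2 phases at E10.5 were almost level. With these values Runx1 stood above 92.6%, 89.0%, 76.3% and 75.4% of all 24138 genes in the same 4 groups. Runx1 lies on chr16:92601466-92826074 on the minus strand (mm10).

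Runx2 and Runx3 had lower levels than Runx1 and stood highest in E11.5 S/G2/M cells. Runx2 had 5.05 FPKM in E11.5 S/G2/M cells, 1.32 FPKM in E11.5 G1 cells, 1.73 FPKM in E10.5 S/G2/M cells and 1.57 FPKM in E10.5 G1 cells. Runx3 had 10.2 FPKM in E11.5 S/G2/M cells, 2.55 FPKM in E11.5 G1 cells, 0.137 FPKM in E10.5 S/G2/M cells and 0.597 FPKM in E10.5 G1 cells. For both genes the E11.5 S/G2/M group was the highest, and the order of the E10.5 values is not firm at such levels. Runx2 shares its deposited locus, chr17:44495987-45119284, with Supt3 on the opposite strand, and antisense genes overlap it. Runx3, at chr4:135120645-135177990 on the plus strand, overlaps the antisense gene Gm16224, and Runx1 overlaps Gm26626. The sources used here do not give whether reads were counted by strand, so reads from these partners cannot be told apart from those of the Runx genes.

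Cbfb was both the steadiest of the 8 genes and one of the most abundant. It had 61.2 FPKM in E11.5 S/G2/M cells, 54.2 FPKM in E11.5 G1 cells, 51.7 FPKM in E10.5 S/G2/M cells and 42.2 FPKM in E10.5 G1 cells. These levels were above those of 93.3% to 95.3% of all genes. Cbfb lies on chr8:105170674-105217988 on the plus strand, and 2 small non-coding genes, Gm22063 and Gm24629, lie within it.

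**Figure D2:**
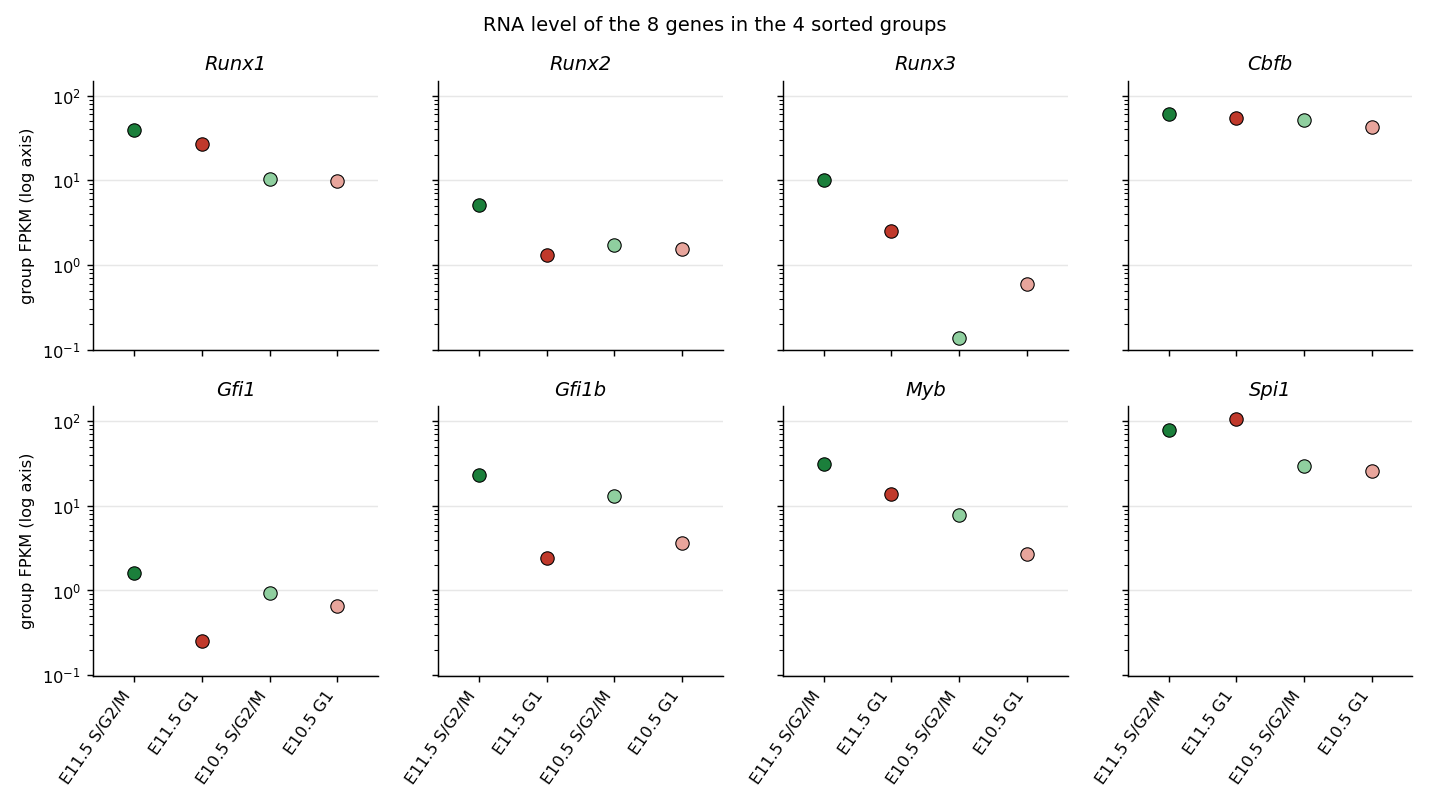
Authors' group values in FPKM (y axis, log scale) of the 8 genes in the 4 groups, from the tables that compare phases. Runx1, Runx3, Cbfb, Myb and Spi1 have both E11.5 groups above both E10.5 groups, while Runx2, Gfi1 and Gfi1b have both S/G2/M groups above both G1 groups. Cbfb stays between 42.2 and 61.2 FPKM.

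Summed over the 3 Runx genes, the level was 54.8 FPKM in E11.5 S/G2/M cells, 30.5 FPKM in E11.5 G1 cells, 12.1 FPKM in E10.5 S/G2/M cells and 12.01 FPKM in E10.5 G1 cells. Runx1 made up 72.2% of this sum in E11.5 S/G2/M cells, 87.3% in E11.5 G1 cells, 84.6% in E10.5 S/G2/M cells and 82.0% in E10.5 G1 cells. Runx3 took 18.6% of the sum in E11.5 S/G2/M cells and 8.35% in E11.5 G1 cells, against 1.13% in E10.5 S/G2/M cells and 4.97% in E10.5 G1 cells. The share of Runx2 was 9.21% in E11.5 S/G2/M cells and 4.33% in E11.5 G1 cells, against 14.3% in E10.5 S/G2/M cells and 13.05% in E10.5 G1 cells. Since the Runx sum was higher at E11.5 and Cbfb nearly level, the ratio of Cbfb to the Runx sum was lower there. It was 1.12 in E11.5 S/G2/M cells and 1.78 in E11.5 G1 cells, against 4.26 in E10.5 S/G2/M cells and 3.52 in E10.5 G1 cells. These shares and ratios are descriptions of RNA levels per length, with no test, and say nothing of protein.

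**Figure D3:**
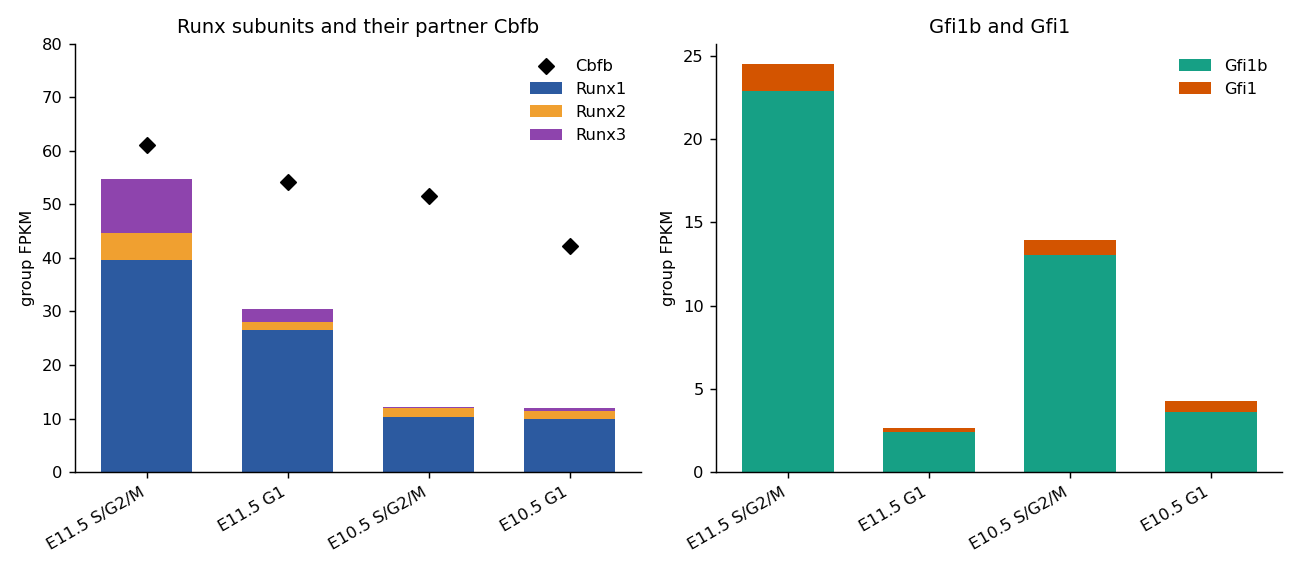
Left, authors' FPKM of Runx1, Runx2 and Runx3 stacked for each group, with Cbfb as diamonds. Right, FPKM of Gfi1b and Gfi1 stacked for each group. The Runx stack reaches 54.8 FPKM in E11.5 S/G2/M cells and 12.01 FPKM in E10.5 G1 cells, with Cbfb above it in all 4 groups, and Gfi1b makes up most of the Gfi stack throughout.

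The comparison of ages asked how these genes differed between E11.5 and E10.5 cells of the same phase. In S/G2/M, Runx1 and Myb rose, with all 8 genes higher at E11.5, as were 52.1% of all genes tested. Runx1 had 40.9 FPKM in E11.5 S/G2/M cells, against 10.1 FPKM in E10.5 S/G2/M cells. That is 4.05-fold higher at E11.5, with a p-value of 5e-05 and a q-value of 0.00308 in the authors' deposited table. Myb had 31.9 FPKM in E11.5 S/G2/M cells, against 7.62 FPKM in E10.5 S/G2/M cells, a 4.18-fold rise with the same p-value and q-value in the authors' deposited table. The p-value of 5e-05 is the smallest in these tables. Of the 8 genes, 2 were thus called, where 4.07% of all 12768 genes tested were called. At a p-value under 0.05 before adjustment stood 4 of the 8 and 13.9% of all genes.

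Spi1 narrowly missed the threshold in this phase. It had 82.2 FPKM in E11.5 S/G2/M cells, against 29.3 FPKM in E10.5 S/G2/M cells, 2.80-fold higher with a q-value of 0.0536 in the authors' deposited table. Runx2 had 5.22 FPKM in E11.5 S/G2/M cells, against 1.72 FPKM in E10.5 S/G2/M cells, with a p-value of 0.0428 and a q-value of 0.334 in the authors' deposited table. The largest ratio among the 8 genes belonged to Runx3, with 10.51 FPKM in E11.5 S/G2/M cells and 0.135 FPKM in E10.5 S/G2/M cells. This 78.1-fold difference did not pass (p = 0.109, q = 0.527 in the authors' deposited table), and it rests on a level near 0 at E10.5. Its log2 fold change of 6.29 became 3.34 with a pseudocount of 1 FPKM. Cbfb, Gfi1b and Gfi1 had log2 fold changes of 0.31, 0.87 and 0.83, with q-values of 0.746, 0.760 and 0.805 in the authors' deposited table.

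In G1, Spi1 and Runx1 rose. Spi1 had 107.9 FPKM in E11.5 G1 cells, against 24.4 FPKM in E10.5 G1 cells, 4.43-fold higher with a q-value of 0.00861 in the authors' deposited table. Runx1 had 27.0 FPKM in E11.5 G1 cells, against 9.46 FPKM in E10.5 G1 cells, 2.85-fold higher with a q-value of 0.0462 in the authors' deposited table. Here 2 of the 7 genes tested were called, where 4.45% of all 12953 genes tested were called. At a p-value under 0.05 before adjustment stood 3 of the 7 and 15.4% of all genes. Myb had 14.01 FPKM in E11.5 G1 cells, against 2.58 FPKM in E10.5 G1 cells, a ratio of 5.42 with a q-value of 0.0678 in the authors' deposited table, so the largest ratio among the tested genes was not one of those called. At 0.085, the threshold that the authors' own marks follow, Myb joined the calls in G1 and Spi1 those in S/G2/M, 3 genes each, beside 5.97% and 5.50% of all genes tested.

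The remaining genes did not pass in G1. Runx3 had 2.58 FPKM in E11.5 G1 cells and 0.574 FPKM in E10.5 G1 cells (q = 0.661 in the authors' deposited table). Cbfb differed by a log2 fold change of 0.44, Runx2 by -0.17 and Gfi1b by -0.51, with q-values of 0.636, 0.965 and 0.884 in the authors' deposited table. The authors did not test Gfi1, which had 0.255 FPKM in E11.5 G1 cells and 0.636 FPKM in E10.5 G1 cells. The median log2 fold change of the members was 0.98 in G1 and 1.54 in S/G2/M, beside 0.02 and 0.03 over all genes tested. Runx1 was thus the member called in both comparisons of age, with log2 fold changes of 1.51 in G1 and 2.02 in S/G2/M, and the difference between these 2 values was not tested.

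**Figure D4:**
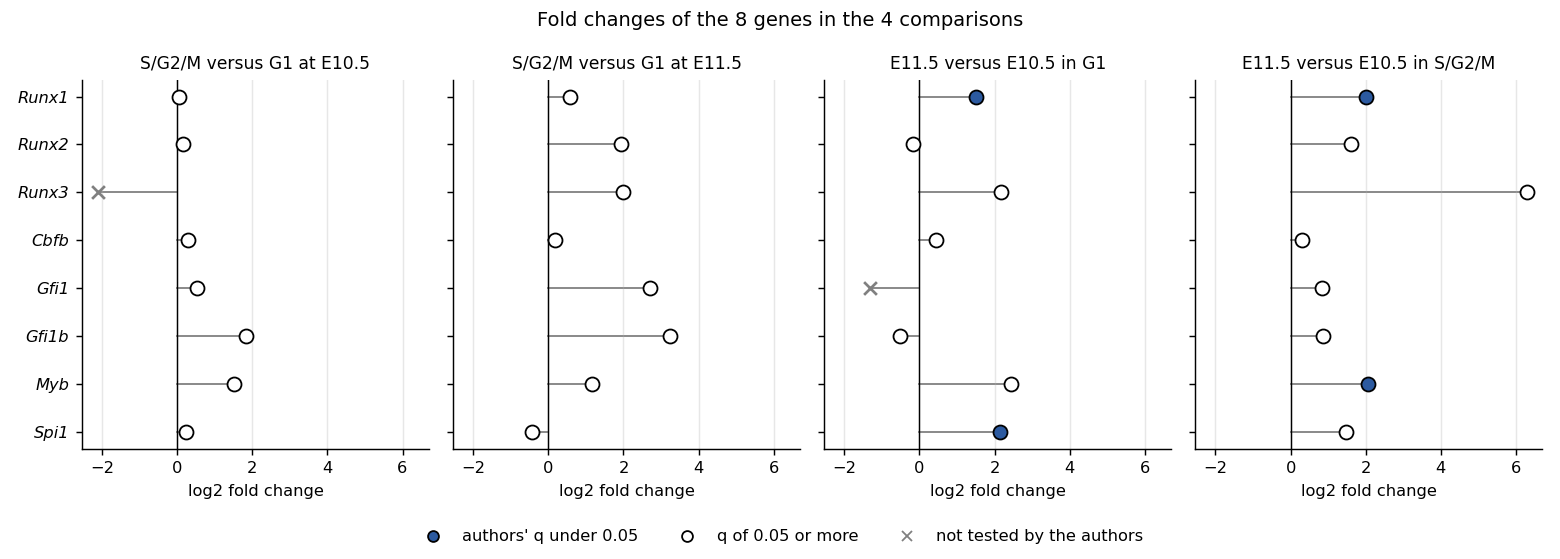
Log2 fold change of the 8 genes (x axis) in the 4 comparisons, computed from the authors' group values, with calls at a q-value under 0.05 marked. The marked genes are Runx1 and Spi1 in G1 and Runx1 and Myb in S/G2/M, all between ages, and no gene is marked between phases.

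The comparison of phases asked how S/G2/M cells differed from G1 cells of the same age, and none of the 8 genes was called at either age. At E11.5 all 8 were tested and 2 had an unadjusted p-value under 0.05, where 0.701% of all 12414 genes tested were called and 8.27% had such a p-value in the authors' Cuffdiff table. At E10.5, 7 of the 8 genes were tested and 1 had such a p-value, where 0.655% of all 12984 genes tested were called and 6.69% had such a p-value. At the threshold of 0.085 none was called either, beside 0.894% of all genes at E11.5 and 0.809% at E10.5.

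At E11.5 Myb had 31.0 FPKM in S/G2/M cells, against 13.8 FPKM in G1 cells (2.24-fold, p = 0.0142, q = 0.369 in the authors' deposited table). At E10.5 it had the smallest p-value of the 8 genes, with 7.71 FPKM in S/G2/M cells, against 2.70 FPKM in G1 cells (2.86-fold, p = 0.0111, q = 0.441 in the authors' deposited table). Myb was thus higher in S/G2/M cells at both ages, and each difference missed the threshold. Runx3 at E11.5 was the other gene with a small unadjusted p-value, with 10.2 FPKM in S/G2/M cells, against 2.55 FPKM in G1 cells (3.99-fold, p = 0.0137, q = 0.366 in the authors' deposited table). At E10.5 Runx3 had 0.137 FPKM in S/G2/M cells and 0.597 FPKM in G1 cells, and the authors did not test it.

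Gfi1b had the largest phase ratios of the 8 genes that were also well above 0. It had 22.9 FPKM in E11.5 S/G2/M cells, against 2.41 FPKM in E11.5 G1 cells, a ratio of 9.499 (p = 0.0758, q = 0.686 in the authors' deposited table). At E10.5 it had 13.01 FPKM in S/G2/M cells, against 3.63 FPKM in G1 cells, a ratio of 3.58 (p = 0.0545, q = 0.754 in the authors' deposited table). Both S/G2/M groups were above both G1 groups. Gfi1 was far lower, with 1.63 FPKM in E11.5 S/G2/M cells, 0.250 FPKM in E11.5 G1 cells, 0.946 FPKM in E10.5 S/G2/M cells and 0.662 FPKM in E10.5 G1 cells. The ratio of Gfi1b to Gfi1 was 14.1 in E11.5 S/G2/M cells, 9.62 in E11.5 G1 cells, 13.8 in E10.5 S/G2/M cells and 5.48 in E10.5 G1 cells, so Gfi1b was the more abundant of these 2 repressors in each group. Gfi1b, on chr2:28609450-28621982 (minus strand), overlaps no other annotated gene. Gfi1, on chr5:107716655-107725805 (minus strand), is overlapped by A430072P03Rik on the opposite strand.

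Runx1 had 39.6 FPKM in E11.5 S/G2/M cells, against 26.6 FPKM in E11.5 G1 cells (p = 0.199, q = 0.811 in the authors' deposited table), and a log2 fold change of 0.06 between phases at E10.5. Runx2 had a log2 fold change of 1.94 between phases at E11.5 (p = 0.129, q = 0.759 in the authors' deposited table), against 0.15 at E10.5. Cbfb had values of 0.17 at E11.5 and 0.29 at E10.5. Spi1 was the member that was lower in S/G2/M than in G1 at E11.5, with 79.6 FPKM in S/G2/M cells and 106.8 FPKM in G1 cells (q = 0.853 in the authors' deposited table). At E10.5 it had 29.8 FPKM in S/G2/M cells and 25.5 FPKM in G1 cells. Subtracting the phase log2 fold change at E10.5 from that at E11.5 gave 0.51 for Runx1, 1.79 for Runx2, 4.12 for Runx3, 2.19 for Gfi1 and 1.41 for Gfi1b, and -0.12 for Cbfb, -0.35 for Myb and -0.65 for Spi1. These differences could not be tested on group values, and those of Runx3 and Gfi1 rest on levels under 1 FPKM. With a pseudocount of 1 FPKM, the phase log2 fold change of Runx3 was 1.66 at E11.5 and -0.49 at E10.5, in place of 1.998 and -2.12. That of Gfi1 was 1.07 at E11.5 and 0.23 at E10.5, in place of 2.70 and 0.52. The median log2 fold change of the members between phases was 1.55 at E11.5 and 0.26 at E10.5, beside -0.06 and -0.04 over all genes tested.

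Spi1 and Myb, both targets of RUNX1, stood in different proportion in the phases. The ratio of Spi1 to Myb was 2.57 in E11.5 S/G2/M cells, against 7.73 in E11.5 G1 cells, and 3.87 in E10.5 S/G2/M cells, against 9.43 in E10.5 G1 cells. The ratio of Spi1 to Gfi1b was 3.48 in E11.5 S/G2/M cells, against 44.4 in E11.5 G1 cells, and 2.29 in E10.5 S/G2/M cells, against 7.01 in E10.5 G1 cells. For both ratios the G1 group was the higher at each age. These ratios were not tested, and Spi1, Myb and Gfi1b were not called between phases at either age. Spi1 was also the most abundant of the 8 genes at E11.5, whereas Cbfb was at E10.5. Myb lies on chr10:21124930-21160984 (minus strand) and is overlapped by the antisense gene Gm26577, and Spi1 on chr2:91096797-91115756 (plus strand) overlaps no other gene.

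The co-factors that RUNX proteins recruit include histone deacetylases, acetyltransferases and the ETO-family repressors. By the authors' Cuffdiff test, none of the 20 listed genes rose or fell between phases, and 1 had an unadjusted p-value under 0.05 at each age. Between ages, Cbfa2t3, an ETO-family repressor of blood progenitors, rose in S/G2/M, with 14.2 FPKM in E11.5 cells, against 4.27 FPKM in E10.5 cells (q = 0.00308 in the authors' deposited table). Prmt1, an arginine methyltransferase that acts on RUNX1, fell in G1, with 82.2 FPKM in E11.5 cells, against 209 FPKM in E10.5 cells (q = 0.0103 in the authors' deposited table). These were the only calls among 19 co-factors tested in S/G2/M and 20 in G1, near the 4.07% and 4.45% of all genes called there, and between phases the share of all genes called was 0.701% at E11.5 and 0.655% at E10.5. The list's median log2 fold change lay between -0.17 and 0.09 in all 4 comparisons. Of the co-repressors of GFI1 and GFI1B, 11 genes that include the demethylase Kdm1a, none was called by the authors' Cuffdiff test in 3 of the 4 comparisons, where 3 had an unadjusted p-value under 0.05 between ages in S/G2/M and 0 between phases at either age. In G1 between ages, Rcor2, a CoREST subunit, fell, with 6.00 FPKM in E11.5 cells, against 28.1 FPKM in E10.5 cells (q = 0.00694 in the authors' deposited table).

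The transcription factors that bind with RUNX1 in blood progenitors, a list of 11, were higher at E11.5 in several cases. In S/G2/M, 3 rose and none fell. Lmo2, a bridging factor, had 144 FPKM in E11.5 cells, against 60.6 FPKM in E10.5 cells (q = 0.0201 in the authors' deposited table). The ETS factor Erg had 61.6 FPKM in E11.5 cells, against 26.1 FPKM in E10.5 cells (q = 0.0265 in the authors' deposited table). Gata2, needed for the emergence of blood stem cells, had 22.7 FPKM in E11.5 cells, against 7.67 FPKM in E10.5 cells (q = 0.0334 in the authors' deposited table). In G1 the ETS factor Fli1 rose, with 93.4 FPKM in E11.5 cells, against 38.8 FPKM in E10.5 cells (q = 0.0389 in the authors' deposited table). Over all genes tested, 4.07% were called between ages in S/G2/M and 4.45% in G1. The list's median log2 fold change was 0.64 in S/G2/M and 0.66 in G1 between ages. Between phases no partner was called by the authors' Cuffdiff test, and 1 at E11.5 and 0 at E10.5 had an unadjusted p-value under 0.05, with medians of 0.32 at E11.5 and 0.01 at E10.5.

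Of 16 other genes known as targets of RUNX1, 5 rose between ages in each phase. In G1 these were Csf3r, Csf1r, Mpo, Csf2rb and Ikzf1, out of 15 tested. Csf3r, the receptor for G-CSF, had 16.8 FPKM in E11.5 cells, against 1.49 FPKM in E10.5 cells (11.3-fold, q = 0.00694 in the authors' deposited table). Mpo, the granule enzyme myeloperoxidase, had 94.8 FPKM in E11.5 cells, against 13.9 FPKM in E10.5 cells (6.83-fold, q = 0.00273 in the authors' deposited table). Ikzf1, which encodes the lymphoid regulator Ikaros, had 38.6 FPKM in E11.5 cells, against 9.26 FPKM in E10.5 cells (4.17-fold, q = 0.00273 in the authors' deposited table). In S/G2/M, 5 of 16 tested rose, Mpo, Ikzf1, Csf1r and Pf4 among them. Ikzf1 had 69.9 FPKM in E11.5 cells, against 13.9 FPKM in E10.5 cells (5.04-fold, q = 0.00308 in the authors' deposited table). Ccnd2, which encodes cyclin D2, fell, with 59.2 FPKM in E11.5 cells, against 128 FPKM in E10.5 cells (q = 0.00308 in the authors' deposited table). The list's median log2 fold change was 0.81 in G1 and 1.25 in S/G2/M. Of all genes tested, 4.45% were called between ages in G1 and 4.07% in S/G2/M.

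Between phases at E11.5, 2 of 15 tested rose and 1 fell, where 0.701% of all genes tested were called. Mpo rose to 341 FPKM in S/G2/M cells, against 93.7 FPKM in G1 cells (q = 0.0102 in the authors' deposited table). Csf1r, the receptor for M-CSF, fell to 73.5 FPKM in S/G2/M cells, against 228 FPKM in G1 cells (q = 0.0175 in the authors' deposited table). At E10.5 none of 15 tested was called by the authors' Cuffdiff test, and 3 had an unadjusted p-value under 0.05. Of all genes tested there, 0.655% were called and 6.69% had such a p-value. Mpo came closest there, with 41.6 FPKM in S/G2/M cells, against 14.5 FPKM in G1 cells (q = 0.0893 in the authors' deposited table).

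Genes known as targets of PU.1 were higher at E11.5 along with Spi1. In G1, 16 of 20 rose and none fell, with a median log2 fold change of 2.56, where 4.45% of all genes tested were called. Itgam, an integrin chain of myeloid cells, had 38.7 FPKM in E11.5 cells, against 2.92 FPKM in E10.5 cells (13.2-fold, q = 0.00273 in the authors' deposited table), and Csf1r had 231 FPKM in E11.5 cells, against 28.2 FPKM in E10.5 cells (8.19-fold, with the same q-value). In S/G2/M, 9 of 20 rose and none fell, with a median of 1.80, where 4.07% of all genes tested were called. Laptm5, a lysosomal protein of blood cells, had 343 FPKM in E11.5 cells, against 70.9 FPKM in E10.5 cells (4.84-fold, q = 0.00308 in the authors' deposited table). Between phases at E11.5 none of 20 rose and 2 fell, Csf1r and Mpeg1, which had 21.8 FPKM in S/G2/M cells, against 76.8 FPKM in G1 cells (q = 0.0102 in the authors' deposited table). At E10.5 none was called between phases, and 1 had an unadjusted p-value under 0.05. Of all genes tested, 0.701% were called between phases at E11.5 and 0.655% at E10.5. The list's median between phases was -0.91 at E11.5 and -0.19 at E10.5.

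Macrophage markers had calls in the 3 comparisons in which PU.1 targets had them, of which Spi1 itself was called in 1, that of ages in G1. Of the 20 listed markers, 15 of 19 tested rose in G1 between ages and 9 of 18 in S/G2/M, and at E11.5 7 of 19 fell between phases. The shares of all genes tested that were called in these 3 comparisons were 4.45%, 4.07% and 0.701%. Their summed level was 4194 FPKM in E11.5 G1 cells, against 652 FPKM in E10.5 G1 cells, and 1615 FPKM in E11.5 S/G2/M cells, against 449.6 FPKM in E10.5 S/G2/M cells. In the tables that compare phases it was 1551 FPKM in E11.5 S/G2/M cells, against 4145 FPKM in E11.5 G1 cells, and 457 FPKM in E10.5 S/G2/M cells, against 679 FPKM in E10.5 G1 cells. Adgre1, the gene of the macrophage marker F4/80, had 47.8 FPKM in E11.5 G1 cells, against 3.26 FPKM in E10.5 G1 cells, and 12.04 FPKM in E11.5 S/G2/M cells, against 2.85 FPKM in E10.5 S/G2/M cells, and rose in both (q = 0.00273 and 0.0304 in the authors' deposited tables). Cd163 was listed at 0 in 3 of the 4 groups and at 0.0203 FPKM in E11.5 G1 cells. Of the 20 PU.1 targets, 5 are also among these markers, and of the other 15, 12 rose in G1 and 7 rose in S/G2/M. These 15 were set apart by name only, which does not make them free of expression in macrophages. Any part of macrophages in the results for Spi1, Runx1 and these lists was not tested. In bulk RNA, more cells of a type and more RNA per cell cannot be told apart.

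**Figure D5:**
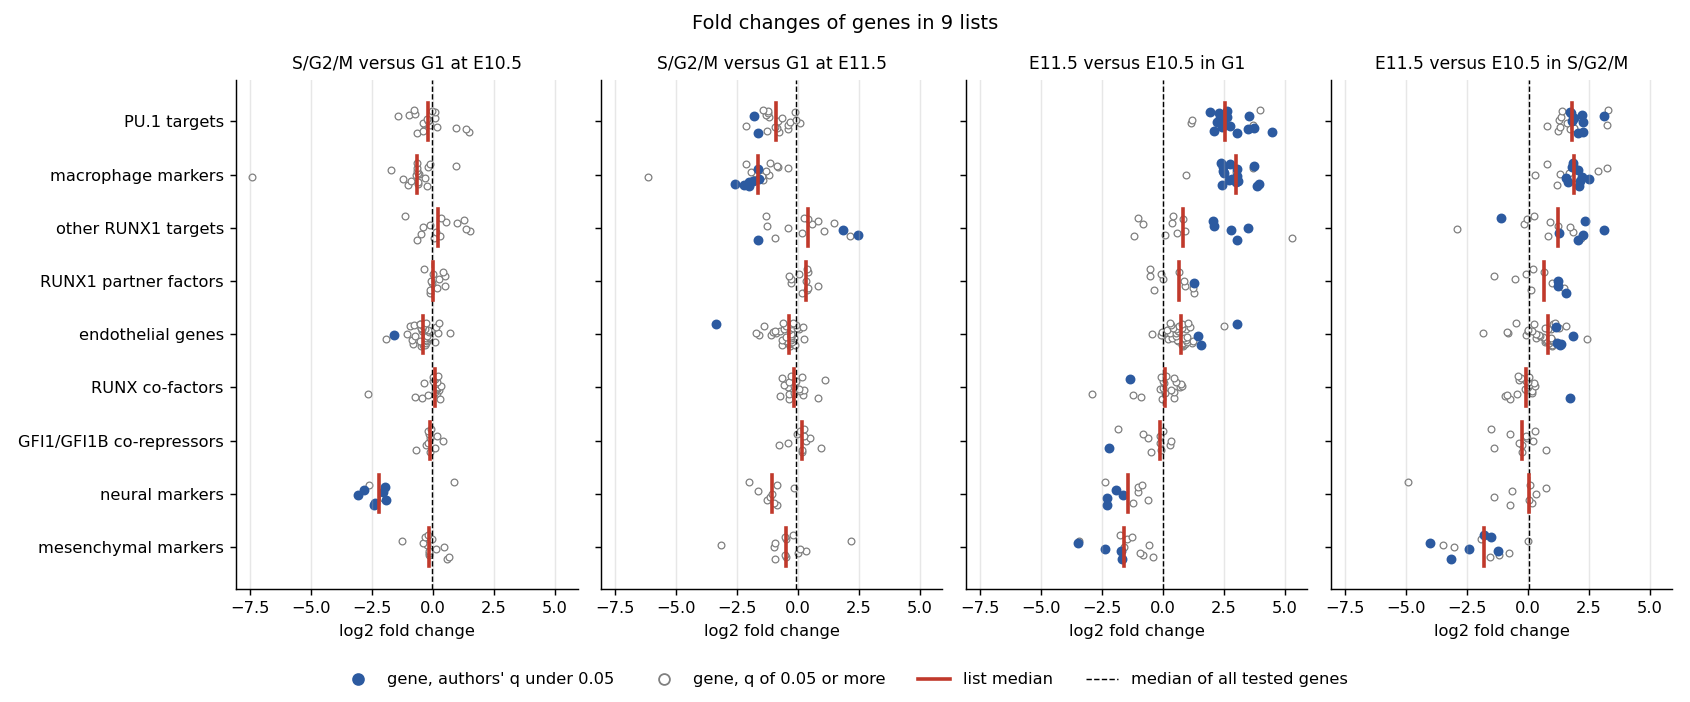
Log2 fold change of each gene of 9 lists (points) in the 4 comparisons, with the median of each list, computed from the authors' group values of genes that the authors tested and that were above 0 in both groups. PU.1 targets and macrophage markers have their medians at 2.56 and 2.98 in G1 between ages, while those of RUNX co-factors lie between -0.17 and 0.09.

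Among the factors that act with or against PU.1, Ikzf1 rose and Egr1 fell in both comparisons of age, out of 11 tested in each. Egr1, an immediate-early factor, had 42.8 FPKM in E11.5 G1 cells, against 156 FPKM in E10.5 G1 cells, and 28.2 FPKM in E11.5 S/G2/M cells, against 121 FPKM in E10.5 S/G2/M cells (q = 0.00273 and 0.00308 in the authors' deposited tables). None of this list was called between phases, where 0 at E11.5 and 1 at E10.5 had an unadjusted p-value under 0.05. Of the relatives, co-activators and targets of MYB, 4 of 12 rose in S/G2/M between ages, namely Mpo, Myc, Cd34 and Kit. Kit, the receptor used in the sort, had 30.003 FPKM in E11.5 S/G2/M cells, against 12.6 FPKM in E10.5 S/G2/M cells (q = 0.0285 in the authors' deposited table), and Myc had 157 FPKM in E11.5 cells, against 73.5 FPKM in E10.5 cells (q = 0.00971 in the authors' deposited table). In G1 between ages, and between phases at E11.5, the call in this list was Mpo alone, out of 11 tested, and at E10.5 there was none, with 3 of 12 at an unadjusted p-value under 0.05. In these 3 comparisons, 4.45%, 0.701% and 0.655% of all genes tested were called, and between ages in S/G2/M 4.07% were. The list's median log2 fold change was 0.29 in S/G2/M and 0.47 in G1 between ages, and 0.49 at E11.5 and 0.14 at E10.5 between phases.

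Endothelial genes, which GFI1 and GFI1B are known to repress, were mostly higher at E11.5. Of 38 listed, 5 rose in S/G2/M and 3 in G1 between ages and none fell, with medians of 0.83 and 0.73. The shares of all genes tested that were called there were 4.07% and 4.45%. Between phases they were 0.701% at E11.5 and 0.655% at E10.5. Pecam1 had 73.2 FPKM in E11.5 S/G2/M cells, against 29.7 FPKM in E10.5 S/G2/M cells, and 113 FPKM in E11.5 G1 cells, against 38.1 FPKM in E10.5 G1 cells (q = 0.00971 and 0.00861 in the authors' deposited tables). Between phases the medians were -0.37 at E11.5 and -0.40 at E10.5, with Lyve1 fallen at E11.5 and Gja5 at E10.5. Gja5, a connexin of arterial endothelium, had 9.62 FPKM in E10.5 S/G2/M cells, against 29.1 FPKM in E10.5 G1 cells (q = 0.0183 in the authors' deposited table). Of 9 genes of the sort and the clusters, 8 were tested. Of these, 3 rose in S/G2/M and 2 in G1 between ages, and none was called between phases, where 2 at E11.5 and 0 at E10.5 had an unadjusted p-value under 0.05.

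Markers of other cells also differed between the groups. Of 10 neural markers, 7 fell between phases at E10.5, and their summed level was 100.0 FPKM in S/G2/M cells, against 498 FPKM in G1 cells. In G1, 4 of the 10 fell between ages, and none of 9 was called in the other 2 comparisons. Of 13 mesenchymal markers, 6 fell in S/G2/M and 4 in G1 between ages, and none changed between phases. Erythroid markers, 11 of which were found, summed to 3109 FPKM in E11.5 S/G2/M cells, against 12213 FPKM in E11.5 G1 cells, with 3 fallen. They summed to 3270 FPKM in E11.5 S/G2/M cells in the age table, against 19759 FPKM in E10.5 S/G2/M cells, again with 3 fallen. Most of the E10.5 sum came from Hba-x (10255 FPKM) and Hbb-y (5911 FPKM). Neither was called in that comparison (q = 0.543 and 0.614 in the authors' deposited table). Megakaryocyte markers had 2 rises in S/G2/M and 1 in G1 between ages and 1 between phases at E11.5, lymphoid markers the same counts, and granulocyte and mast cell markers 1 rise in S/G2/M and 2 in G1 between ages, with 1 rise and 1 fall between phases at E11.5. Epithelial and hepatic markers and germ cell markers had no calls. Over all genes tested, 4.07% were called in S/G2/M and 4.45% in G1 between ages. Between phases the share was 0.701% at E11.5 and 0.655% at E10.5. With a minimum of 5 FPKM, no lymphoid marker was called between phases at E11.5. The part of these cells in the results for the 8 genes was not tested.

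The genes whose pattern over the 4 groups was most like that of each member were sought by the root mean square distance between log2(FPKM + 1) values centred on each gene's mean. About 9620 genes with at least 5 FPKM in a group entered, and with 4 points a short distance is a description only. For Runx1 the closest were Pik3cd, Fam65b, Adora2a, Il12rb2 and Tspo, at distances of 0.03 to 0.09. Pik3cd, a PI3-kinase catalytic subunit of white blood cells, had 11.96 FPKM in E11.5 S/G2/M cells, 8.04 FPKM in E11.5 G1 cells, 2.66 FPKM in E10.5 S/G2/M cells and 2.67 FPKM in E10.5 G1 cells. For Spi1 the closest were Ldlrad4, Lrrc25, Inpp5d, Abcg1 and Mtus1, at 0.02 to 0.07. For Gfi1b they were Stard10, Depdc1b, Tst, Sirt3 and Plk1, at 0.19 to 0.41, the last a kinase of mitosis. For Myb they were BC035044, Psd4, Pglyrp2, Hist1h2af and Rgcc, at 0.16 to 0.27, and for Runx3 Cd37, Gpr171, Coro2a, Hps6 and Cox7a1, at 0.28 to 0.44. Runx2 came closest to Slc25a32, Nmb, B9d2, Cdk6 and Tmem205, at 0.05 to 0.13. Cbfb and Gfi1 came closest to Brms1l, Zfp592, Iscu, Btbd9 and Rpn1 (0.01 to 0.03) and to Emid1, Nop10, Suv39h1, Mrpl47 and Fam84b (0.03 to 0.06). Among the members themselves the closest pairs were Gfi1 and Runx2 at 0.28, and Cbfb with Gfi1 and Runx1 with Spi1 at 0.35 each. Gfi1 had at most 1.63 FPKM in the tables that compare phases, and at such levels a pseudocount of 1 FPKM narrows differences. Without it, the phase log2 fold change at E11.5 was 2.70 for Gfi1, 1.94 for Runx2 and 0.17 for Cbfb. Pairs of members were not recomputed with another pseudocount. With a pseudocount of 0.1 FPKM in place of 1, no member kept all 5 genes: 4 of 5 stayed for Cbfb, Gfi1b and Myb, 3 for Runx1 and Runx2, 1 for Spi1 and 0 for Runx3 and Gfi1.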

How the data were processed

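RNA was sequenced in 12 samples of sorted cluster cells, 3 in each of 4 groups of age and phase. The authors deposited 6 gene tables with Cuffdiff's columns, each with a single FPKM value for either of its 2 groups, as the authors give them per the file headers. The p-value and q-value of each gene are those of the authors' test, per the file headers. TopHat, Cuffdiff, CASAVA 1.4 and mm10 are named, per the submitters' processing notes, while the labels' protocols name bowtie 0.12.2 and mm8. Of 23044 gene symbols in the reference annotation of GRCm38 (mm10), 22824 (99.0%) overlapped the deposited locus of the same symbol, so positions are given as mm10. The deposited tables name S/G2/M with G2.

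The deposited tables give no read totals, so depth and the precision it gives are unknown. Adjusting the authors' p-values by Benjamini-Hochberg over their tested genes gave back the deposited q-values, and genes with too few reads (11147 to 11717 per table) were not tested by the authors. The authors' mark of significance corresponds to 0.085, and 0.05 was used here. Fold changes are ratios of the group FPKM values without a pseudocount, and list medians cover genes that the authors tested and that were above 0 in both groups. For the counts over 19 gene lists and the fold changes, the calculation was tested on simulated data. The design named limma for values per sample, and since the tables hold group values no test was run here. A comparison of protein sequences and fits with a replicate block or without single replicates were not run.

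All members are named, and of each list at most 6 called genes of at least 5 FPKM, by smallest q-value and then largest fold change, or the 2 most abundant where none was called. Genes with their values outside this rule, such as Adgre1 in S/G2/M, Fut4, Fut9, Cd163 and Mpo at E10.5, were chosen after their values were seen. A gene that the rule selects is not reported here, though the counts include it. The members and lists were chosen with earlier results of these data known. Alternatives were thresholds of 0.01 and 0.085, minimum levels of 1 and 5 FPKM, q-values recomputed over tested genes of at least 1 FPKM, a pseudocount of 1 FPKM, centring on the median, summing rows of a symbol and the deposited tables in the other order. Calculations used pandas 2.3.3 and numpy 2.4.6 under Python 3.11.15, and plots matplotlib 3.10.9.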

Additional observations from a re-analysis of the deposited data

How the results depend on the processing

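For the fold changes of the 8 genes, 32 values, none of the 112 recalculations changed a direction. They used a pseudocount of 1 FPKM, centring on the median, summed rows of a symbol or, for the phases, the authors' tables in the other order. Each gene had a single row, so summing rows could change nothing. Only the tables in the other order have q-values of their own, and no call changed there. The other settings could not change a call. The pseudocount made the fold changes of Runx3 and Gfi1, at low levels, smaller, as given for the phases. At a threshold of 0.01, 1 of the 8 genes was called between ages in G1, Spi1, in place of 2, and at 0.085 3 were called in each comparison of age, with Myb added in G1 and Spi1 in S/G2/M. At 0.01 the genes of all lists together that were called numbered 0 between phases at E11.5 (19 at 0.05), 0 between phases at E10.5 (13 at 0.05) and 29 between ages in S/G2/M (46 at 0.05). The smallest q-value in the phase tables was 0.0102 at E11.5 and 0.0101 at E10.5, so no gene can pass 0.01 there. Of 422 recounts of single lists, 387 stayed within 1.5 times, 31 gave fewer calls and 4 more. Of the 31, 27 came from the threshold of 0.01, 2 from a minimum of 5 FPKM, 1 from the table in the other order (endothelial genes between phases at E10.5) and 1 from leaving macrophage markers out of the PU.1 targets, an alternative added after seeing the data. No paired analysis was possible because the tables hold 1 value for each group and none for a sample, and for the same reason no replicate could be left out. Depth is unknown, so no limit of detection can be given for the low levels of Runx2, Runx3 and Gfi1.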
